A study of Mus musculus with 6 samples.

Results

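H/ACA and Cajal body guide RNAs are small noncoding RNAs that direct the modification of other RNAs, and 42 of them were measured on arrays of a mouse ILC2 line: 34 with a Snora symbol and 8 with a Scarna symbol, among 23185 named probe sets. Members were selected on their symbol, as every probe set whose gene symbol starts with Snora or Scarna and a digit; the class itself was chosen by its high group difference in these same log2 values. An ILC2 is an innate lymphocyte, lacking an antigen receptor of the T or B cell kind, that makes IL-5 and IL-13. The line came from C57BL/6J mice, was kept with 10 ng/ml of each of the cytokines IL-2 and IL-33, and received a lentiviral CRISPR construct with GFP and a guide RNA. In 3 samples that guide was directed at Myc (genotype label Myc knock out) and in 3 it was a non-target control; cells positive for GFP were collected by sorting 6 days after transduction, and total RNA from them was run on Affymetrix arrays. The labels give no other difference between the groups. They do not say whether the 3 samples of a group were separate cultures, so the p-values reflect the spread among these samples alone, and that spread may be technical.

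An H/ACA RNA folds into hairpins that end in short single-stranded boxes, the last of which is the triplet ACA near the 3′ end. Each hairpin pairs with a target RNA and places a uridine for conversion to pseudouridine by dyskerin (Dkc1), which works in a particle with Gar1, Nhp2 and Nop10. Most Snora RNAs direct this change in ribosomal RNA in the nucleolus, while the Scarna RNAs sit in Cajal bodies and act on the small nuclear RNAs of the spliceosome. In human cells SCARNA2 and SCARNA9 carry C/D boxes, which guide methylation, SCARNA6 and SCARNA10 carry both box types, and SCARNA13, also named U93, holds H/ACA domains in tandem, so not every RNA with a Scarna symbol is of pure H/ACA type. Nearly all mammalian guide RNAs are cut out of introns of a host gene.

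The form of these RNAs is shown by the 3′ hairpins of the 4 for which a RefSeq hairpin entry (GRCm38.p6) covers that end, because microRNA genes have been annotated inside them. Scarna13, which is among the RNAs that rose, is shown from chr12:105031077-105031141 (minus strand). Snora36b is shown from chr1:185242975-185243038 (plus strand), Scarna3a from chr1:159340358-159340423 (plus strand) and Scarna3b from chr12:80391614-80391677 (minus strand). Capitals mark the ACA triplet closest to the box position at the 3′ end.
Scarna13: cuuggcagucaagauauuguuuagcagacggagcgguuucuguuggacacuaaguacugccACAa
Snora36b: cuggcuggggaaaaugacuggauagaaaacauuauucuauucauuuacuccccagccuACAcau
Scarna3a: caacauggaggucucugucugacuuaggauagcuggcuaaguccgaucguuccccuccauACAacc
Scarna3b: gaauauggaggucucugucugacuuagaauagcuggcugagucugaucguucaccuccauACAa
The triplet was followed by 3 bases up to the annotated end in Scarna13 and Snora36b, by 4 in Scarna3a and by 1 in Scarna3b. The shown stretches of Scarna3a and Scarna3b, which lie in the genes Cop1 and Dcaf5, were identical at 58 of 64 aligned bases (90.6%), so their probe sets may share signal. Signals of different probe sets are given as values and are not a ranking of abundance, since probes differ in how well they bind.

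Values throughout are log2 RMA values, in which 1 unit is a doubling and each value is relative to the other arrays; differences are the arrays labelled Myc knockout minus control ± SE from limma. Array medians over all probe sets lay between 3.27 and 3.34. Of 10 ILC2 markers, 8 lay above the upper quartile of all genes, against 0 of 7 T cell, 0 of 4 B cell and 0 of 3 ILC3 markers; Rora and Il17rb were the dim ILC2 markers, at 3.99 and 2.12 in the arrays labelled Myc knockout and 4.01 and 2.09 in controls. Above the upper quartile were also 1 of 5 NK cell and ILC1 markers (Prf1) and 1 of 5 myeloid and mast cell markers (Itgam). Among all these markers, Il5 (0.49 ± 0.061, limma's adjusted p = 0.0386) and the ILC3 cytokine gene Il17a (0.95 ± 0.11, limma's adjusted p = 0.0353) rose. The ILC2 genes Il13 (0.23 ± 0.095), Il2ra (0.19 ± 0.059) and Icos (0.16 ± 0.057) also had separate groups in this direction, without passing. Markers with separate groups in the other direction, none of which passed, were Itgam (−0.63 ± 0.10, limma's adjusted p = 0.0767), the T cell gene Cd3g (−0.43 ± 0.13) and the ILC2 genes Gata3 (−0.25 ± 0.066) and Il7r (−0.22 ± 0.076). Il17a was at 3.64, 3.91 and 3.84 in the arrays labelled Myc knockout and at 2.72, 3.03 and 2.77 in controls, near the median of all genes, and the part of these markers in the guide RNA differences was not tested. Myc, the targeted gene, was at 9.55, 9.79 and 9.73 in the arrays labelled Myc knockout and at 9.27, 9.33 and 9.39 in controls. Its mRNA was therefore not lower under the knockout label, with a difference of 0.36 ± 0.080 (limma's adjusted p = 0.127; exact two-sided permutation p = 0.1, the smallest that 3 against 3 arrays allow). Small CRISPR lesions can leave mRNA levels as they were, so this is a weak check, and every direction below rests on the labels.

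Many of the guide RNAs were higher in the arrays labelled Myc knockout, some by about 1 log2 unit, while others had differences close to 0. Of the 42 RNAs, 33 had a positive difference and 9 a negative one, with a median of 0.28 and a range of −0.23 to 1.47, against a median of 0.0077 and 52.3% positive over all genes. At limma's Benjamini-Hochberg adjusted p under 0.05 over all genes, 8 rose (background 0.254% of all genes) and 0 fell (background 0.198%). With no adjustment, p was under 0.05 for 22 that were higher (background 6.97%) and 0 that were lower (background 7.91%). All 3 arrays labelled Myc knockout lay above all 3 controls for 20 RNAs (background 9.25%) and below them for 0 (background 10.6%). The set of RNAs was proposed with results of these data in view, so these counts and the p-values below describe the fit and are no independent evidence. In bulk RNA, more guide RNA per cell and more cells that hold it cannot be told apart, and a probe set for an intronic RNA also binds the unspliced host transcript.

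**Figure D1:**
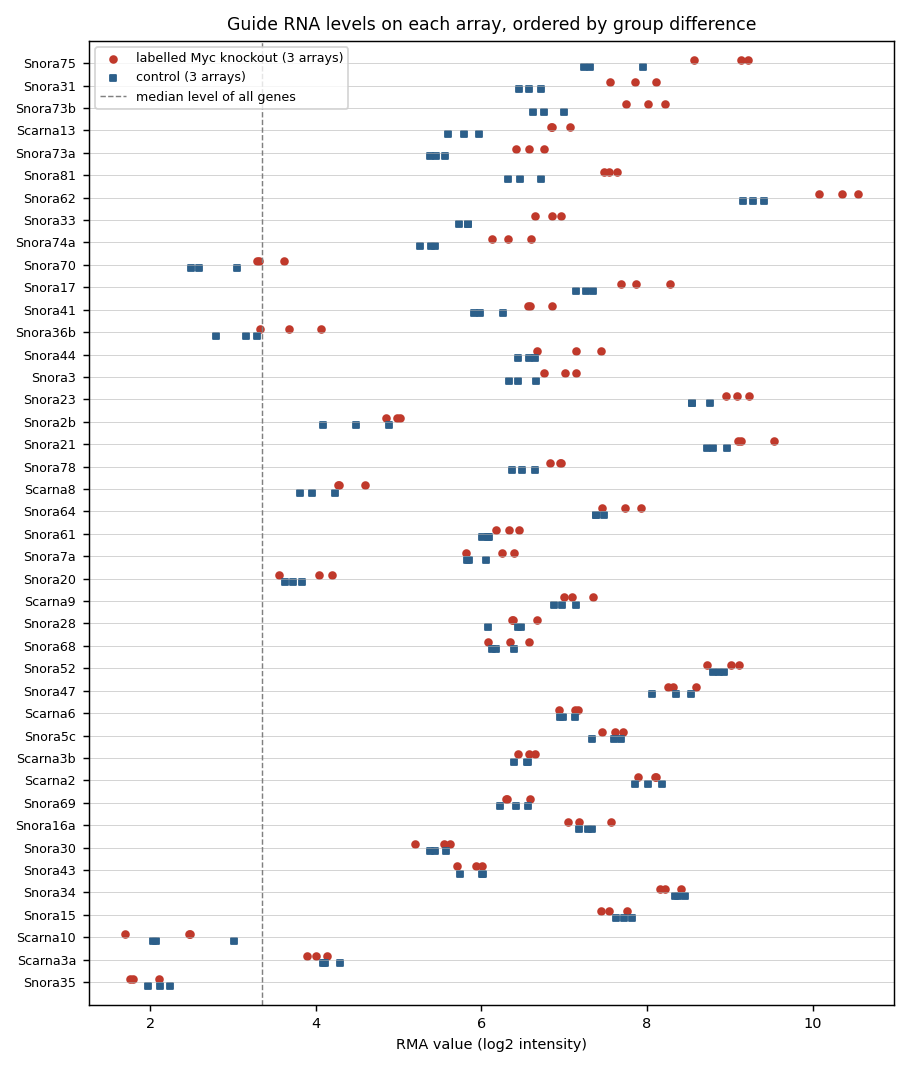
Log2 RMA value (horizontal axis) of each of the 42 guide RNAs (rows, ordered by group difference) on each array: red circles, the 3 arrays labelled Myc knockout; blue squares, the 3 controls; dashed line, median level of all genes. The groups are separate in most rows from Snora75 down to Snora61 and overlap in the rows below, where the differences come close to 0 or fall under it.

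The RNAs that rose include a processing RNA of the small ribosomal subunit. Snora73a and Snora73b, known as U17 or E1, are needed for cleavage of the precursor of 18S rRNA rather than for a pseudouridine. Snora73a was at 6.75, 6.57 and 6.41 in the arrays labelled Myc knockout and at 5.57, 5.38 and 5.45 in controls, a 2.17-fold difference (1.12 ± 0.10, limma's adjusted p = 0.0205). Snora73b was at 8.21, 8.01 and 7.75 in the arrays labelled Myc knockout and at 6.99, 6.62 and 6.75 in controls, a 2.30-fold difference (1.20 ± 0.14, limma's adjusted p = 0.0353). The groups were separate by a clear margin for both, but the RNAs are near-identical copies from the same host, Snhg3, so their probe sets can share signal and the pair is not 2 independent observations.

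The remaining Snora RNAs that rose are H/ACA RNAs of the nucleolus. Snora33 was at 6.96, 6.85 and 6.64 in the arrays labelled Myc knockout and at 5.84, 5.73 and 5.84 in controls (2.02-fold, 1.02 ± 0.092, limma's adjusted p = 0.0205). Snora81 was at 7.48, 7.63 and 7.55 in the arrays labelled Myc knockout and at 6.72, 6.33 and 6.47 in controls (2.07-fold, 1.05 ± 0.11, limma's adjusted p = 0.0251). Their SDs under the knockout label were 0.16 and 0.075, against a median of 0.18 over the 42 guide RNAs. In controls they were 0.065 and 0.20, against a median of 0.13. Snora31 was at 8.11, 7.86 and 7.55 in the arrays labelled Myc knockout and at 6.73, 6.46 and 6.58 in controls (2.38-fold, 1.25 ± 0.15, limma's adjusted p = 0.0353). Snora62, also called E2, was at 10.55, 10.36 and 10.08 in the arrays labelled Myc knockout and at 9.28, 9.16 and 9.41 in controls (2.06-fold, 1.04 ± 0.13, limma's adjusted p = 0.0397). Snora74a, known in human cells as U19, was at 6.60, 6.32 and 6.12 in the arrays labelled Myc knockout and at 5.26, 5.39 and 5.44 in controls (1.98-fold, 0.99 ± 0.13, limma's adjusted p = 0.0405). In these 3 the highest array was replicate 1 of those labelled Myc knockout and the lowest of that group was replicate 3, and the groups still did not touch.

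Scarna13 was the only 1 of 8 Scarna RNAs that rose. It was at 7.07, 6.84 and 6.85 in the arrays labelled Myc knockout and at 5.79, 5.97 and 5.60 in controls, a 2.20-fold difference (1.14 ± 0.11, limma's adjusted p = 0.0251). Scarna8, an H/ACA RNA known in human cells as U92, was at 4.59, 4.27 and 4.28 in the arrays labelled Myc knockout and at 3.95, 3.81 and 4.23 in controls; the groups did not overlap, but the difference of 0.38 ± 0.14 did not pass (limma's adjusted p = 0.282). Scarna9 differed by 0.15 ± 0.11, Scarna6 by 0.064 ± 0.087, Scarna3b by 0.053 ± 0.079 and Scarna2 by 0.018 ± 0.10. Scarna3a, at −0.15 ± 0.089, and Scarna10, at −0.15 ± 0.32, were the negative ones. For Scarna2, Scarna3b and Scarna6 the 95% intervals were −0.23 to 0.27, −0.14 to 0.24 and −0.14 to 0.27. Those of Scarna8, Scarna9, Scarna3a and Scarna10 ended at 0.71, 0.42, 0.058 and 0.62. All these intervals ended below that of Scarna13, which was 0.86 to 1.41. Scarna13 was selected by passing in this same fit, so the comparison is a description and not a test. Scarna10 was dim and the most variable of all 42 RNAs, at 2.48, 1.70 and 2.47 in the arrays labelled Myc knockout and at 2.03, 2.07 and 3.01 in controls, so its interval was wide (−0.93 to 0.62).

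**Figure D2:**
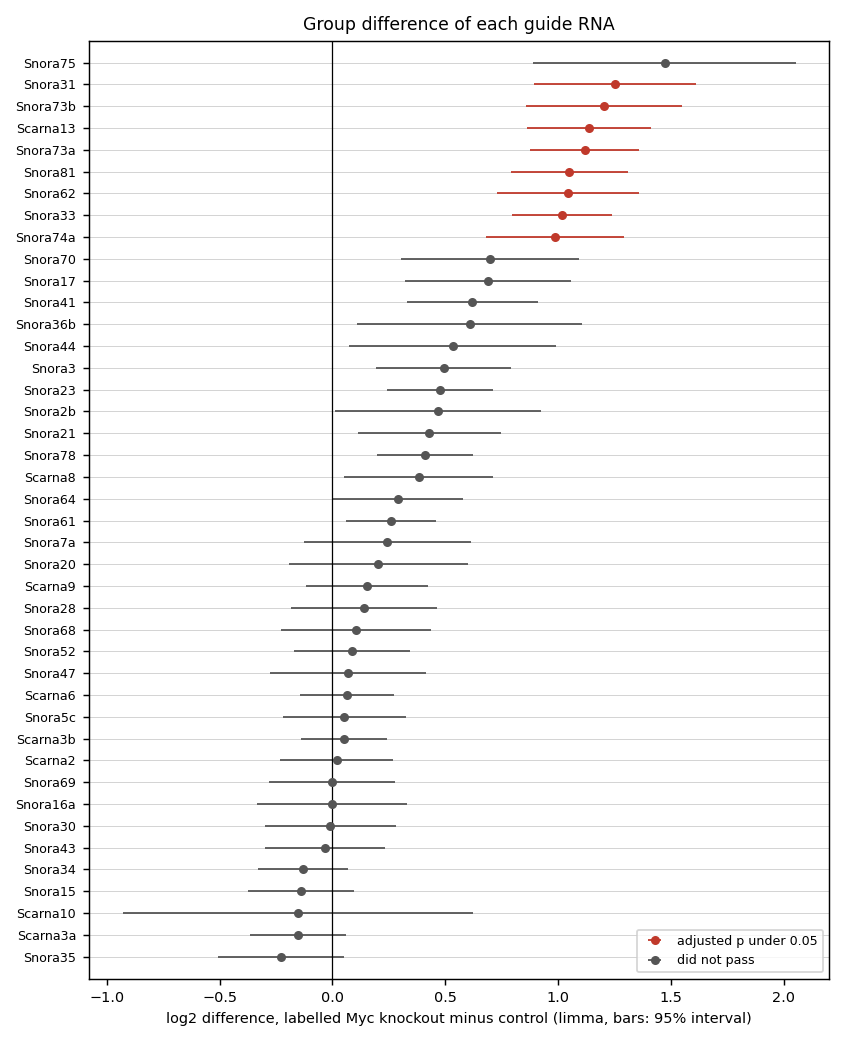
Log2 difference of each of the 42 guide RNAs, arrays labelled Myc knockout minus control (horizontal axis), with 95% intervals from limma; red marks the 8 RNAs at an adjusted p under 0.05 and dark grey the others. Snora75 has the highest difference (1.47) and a wide interval (0.89 to 2.05), and no interval lies wholly under 0.

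A further set of nucleolar guides was separate between the groups without passing. Snora75, named U23 in human cells, had the highest difference of all, with 9.13, 9.21 and 8.57 in the arrays labelled Myc knockout and 7.95, 7.24 and 7.31 in controls (2.77-fold, 1.47 ± 0.24); its SDs of 0.35 and 0.39 were among the largest, and limma's adjusted p was 0.0751. Snora41 differed by 0.62 ± 0.12 (limma's adjusted p = 0.0994), Snora17 by 0.69 ± 0.15, Snora23 by 0.48 ± 0.098, Snora78 by 0.41 ± 0.088, Snora3 by 0.49 ± 0.12, Snora21 by 0.43 ± 0.13, Snora44 by 0.53 ± 0.19 and Snora61 by 0.26 ± 0.083. None of these overlapped between groups. Snora70 and Snora36b did not overlap either (0.70 ± 0.16 and 0.61 ± 0.21), but their means of 3.41 and 3.69 in the arrays labelled Myc knockout and 2.71 and 3.08 in controls lay near the array medians. Snora2b (0.47 ± 0.19) and Snora64 (0.29 ± 0.12) overlapped by 1 array and were under an unadjusted p of 0.05.

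The other Snora RNAs overlapped between the groups. Among those of high signal, Snora52 was at 9.11, 9.02 and 8.73 in the arrays labelled Myc knockout and at 8.79, 8.87 and 8.93 in controls (0.086 ± 0.11). Snora47 was at 8.60, 8.31 and 8.25 in the arrays labelled Myc knockout and at 8.06, 8.35 and 8.53 in controls (0.069 ± 0.14). Snora34 was at 8.41, 8.22 and 8.15 in the arrays labelled Myc knockout and at 8.37, 8.34 and 8.46 in controls (−0.13 ± 0.083). The upper ends of their 95% intervals were 0.34, 0.42 and 0.069, under the lower ends of all 8 intervals of the RNAs that rose, which began at 0.68 or above. The RNAs that rose were selected by passing in this same fit, so this places the values and is not a test. Snora7a (0.24 ± 0.15), Snora20 (0.20 ± 0.17), Snora28 (0.14 ± 0.13), Snora68 (0.10 ± 0.14) and Snora5c (0.053 ± 0.11) had small positive differences, and Snora69 (−0.00090 ± 0.12), Snora16a (−0.0029 ± 0.14), Snora30 (−0.0090 ± 0.12), Snora43 (−0.033 ± 0.11) and Snora15 (−0.14 ± 0.098) small negative ones. Snora35, which lies in the serotonin receptor gene Htr2c and is known as a brain RNA, was the dimmest probe set of the 42, at 1.79, 1.76 and 2.10 in the arrays labelled Myc knockout and 2.12, 2.24 and 1.97 in controls; its mean over the 6 arrays, 2.00, lay below the lower quartile of all genes, 2.10.

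The spread of the guide RNAs between arrays of a group was larger than that of other bright genes. Of the 42, 33 lay above the upper quartile of all genes by level; their median SD was 0.17 in the arrays labelled Myc knockout and 0.13 in controls, against 0.066 and 0.067 over all genes that bright. The arrays of a group also stood in a common order. Replicate 1 gave the highest value of the arrays labelled Myc knockout for 32 of 42 guide RNAs, against 36.0% of all genes, and control replicate 3 the highest control value for 25 of 42, against 31.1% of all genes. Neither trait was particular to the 42. Of bright C/D box RNAs (Snord symbols, described below), Snord110 had SDs of 0.16 under the knockout label and 0.12 in controls. Snord55 had 0.16 and 0.25, but Snord32a only 0.065 and 0.031. The mean over the 65 Snord RNAs was also highest in replicate 1 of the arrays labelled Myc knockout (7.02) and in control replicate 3 (6.99). The mean over the 42 RNAs was 6.80, 6.64 and 6.51 in the arrays labelled Myc knockout and 6.24, 6.20 and 6.30 in controls, so the groups stayed apart on this mean. Leaving out the first array labelled Myc knockout, the median difference was 0.19; 17 RNAs were then higher, and 2 lower, with an unadjusted p under 0.05, against 6.61% and 6.85% of all genes in that fit.

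None of the 8 calls held when an array was left out. In those fits 0 to 2 of all 23185 genes were called, against 105 with all 6 arrays. Leaving out any 1 of the 6 arrays left 0 guide RNAs past the threshold in limma, with the smallest adjusted p between 0.0701 and 0.158, while 15 to 24 had an unadjusted p under 0.05 and were higher (5.65% to 6.78% of all genes in the same fits) and 0 to 2 were lower (6.27% to 7.28% of all genes). Over these 6 fits the differences of the 8 RNAs stayed between 0.86 (Snora74a) and 1.40 (Snora31), and the median over the 42 lay between 0.19 and 0.41, the upper value coming when the third array labelled Myc knockout was left out.

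C/D box RNAs, the other class of nucleolar guide, direct methylation of ribosomal RNA and often lie in other introns of the same host genes. Of 65 Snord RNAs, 0 passed in either direction in limma, 5 were higher and 4 lower with unadjusted p under 0.05, near the 6.97% and 7.91% of all genes, and 25 differences were positive and 40 negative, with a median of −0.056. The 34 Snora RNAs had a median of 0.42 with 27 positive, and the 8 Scarna RNAs a median of 0.058 with 6 positive. Snord72 (−0.65 ± 0.12), Snord2 (0.39 ± 0.076) and Snord14e (0.59 ± 0.12) had the smallest adjusted p among the C/D RNAs in limma, 0.0937, 0.0998 and 0.106. All 3 arrays labelled Myc knockout lay above all 3 controls for 8 of the 65 and below them for 4 (9.25% and 10.6% of all genes). The differences ranged from −0.65 to 0.77, the highest being Snord13 (0.77 ± 0.22), whose groups were separate. The mean over the 65 was 7.02, 6.84 and 6.83 in the arrays labelled Myc knockout and 6.88, 6.90 and 6.99 in controls, and these overlap. The annotated RNAs are also shorter, with a median of 68 bases in the Snord class against 119.5 in the 42 guide RNAs and 181 in the 8 that rose. Longer RNAs had somewhat larger differences. Spearman's rho between length and difference was 0.27 over the 42 guide RNAs (Snora and Scarna together), 0.21 over the 34 Snora RNAs and 0.26 over the 65 Snord RNAs. These are weak correlations across RNAs measured on the same 6 arrays. Annotated lengths of guide RNAs went down to 42 bases (Scarna9), and whether they cover the full RNAs was not tested.

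**Figure D3:**
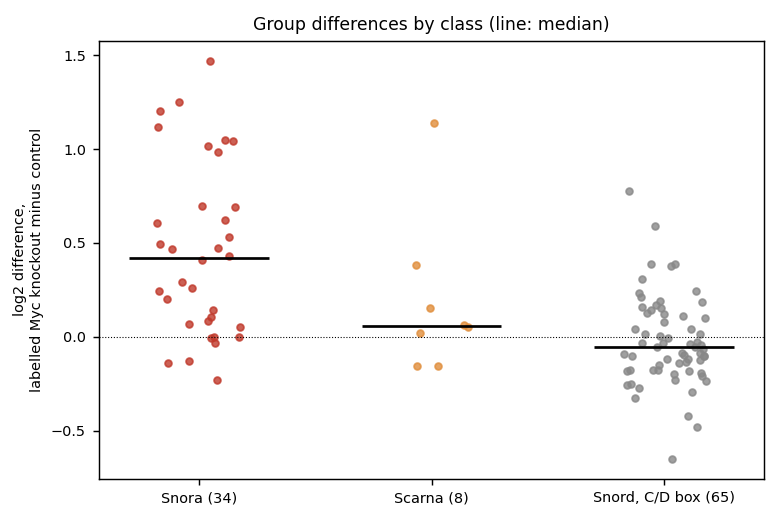
Log2 difference, arrays labelled Myc knockout minus control (vertical axis), of each RNA in the Snora, Scarna and Snord classes; each point is 1 probe set and the black line the class median (0.42, 0.058 and −0.056). The Snora points extend to 1.47 and the Snord points lie on both sides of 0.

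Host genes had smaller differences than most of the RNAs they carry. By position in the RefSeq gene table (GRCm38.p6, used without strand), 41 of the 42 guide RNAs lay inside 36 host genes, 30 of them protein-coding and 6 long noncoding, and 1, Scarna2, lay in none; Snora78 lay in both Rps2 and Snhg9. Ribosomal proteins were encoded by 10 hosts. Of the 31 hosts with a probe set, 0 passed in limma, 3 were higher and 1 lower with unadjusted p under 0.05 (6.97% and 7.91% of all genes), and 11 differences were positive and 20 negative with a median of −0.051. The guide RNA had the larger difference in 29 of the 36 that have a measured host. The probe sets of 4 hosts, Tpt1, Rpl10, Rps2 and Htr2c, lay below the median level of all genes and cannot show how those mRNAs changed. The count was 26 of 32 over RNAs with a host at or above that median. Whether the probe sets of those hosts report their mRNAs well was not tested. They include the ribosomal protein genes Rpsa, Rpl23 and Rpl27a, at mean levels of 4.39, 5.72 and 5.88. As a class the guide RNAs were chosen for high differences in these same values, so these counts are no independent evidence.

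Hosts of the RNAs that rose had differences close to 0 or under it, apart from a very dim one. Snhg3, the noncoding host of Snora73a and Snora73b, was at 5.73 ± 0.026 in the arrays labelled Myc knockout and 5.78 ± 0.14 in controls (SD, n = 3 each, as for the next 2 hosts). Snhg10, the noncoding host of Scarna13, was at 4.65 ± 0.042 in the arrays labelled Myc knockout and 4.70 ± 0.011 in controls, and Snhg4, which holds Snora74a, was at 6.60 ± 0.041 in the arrays labelled Myc knockout and 6.55 ± 0.032 in controls. The differences of these noncoding hosts were −0.051, −0.056 and 0.055, none of which passed, beside about 1 for their RNAs. Eif4a2, a translation initiation factor gene and host of Snora81, differed by −0.13 ± 0.099, and Rpsa, a ribosomal protein gene and host of Snora62, by −0.34 ± 0.14 at a modest mean level of 4.39. Ncl, the nucleolin gene that holds Snora75, differed by 0.12 ± 0.058. Tpt1, host of Snora31, had a difference of 0.52 ± 0.13 at levels of 1.68 in the arrays labelled Myc knockout and 1.17 in controls, under the lower quartile of all genes. Rps12, host of Snora33, is among the hosts without a probe set in the values used here.

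**Figure D4:**
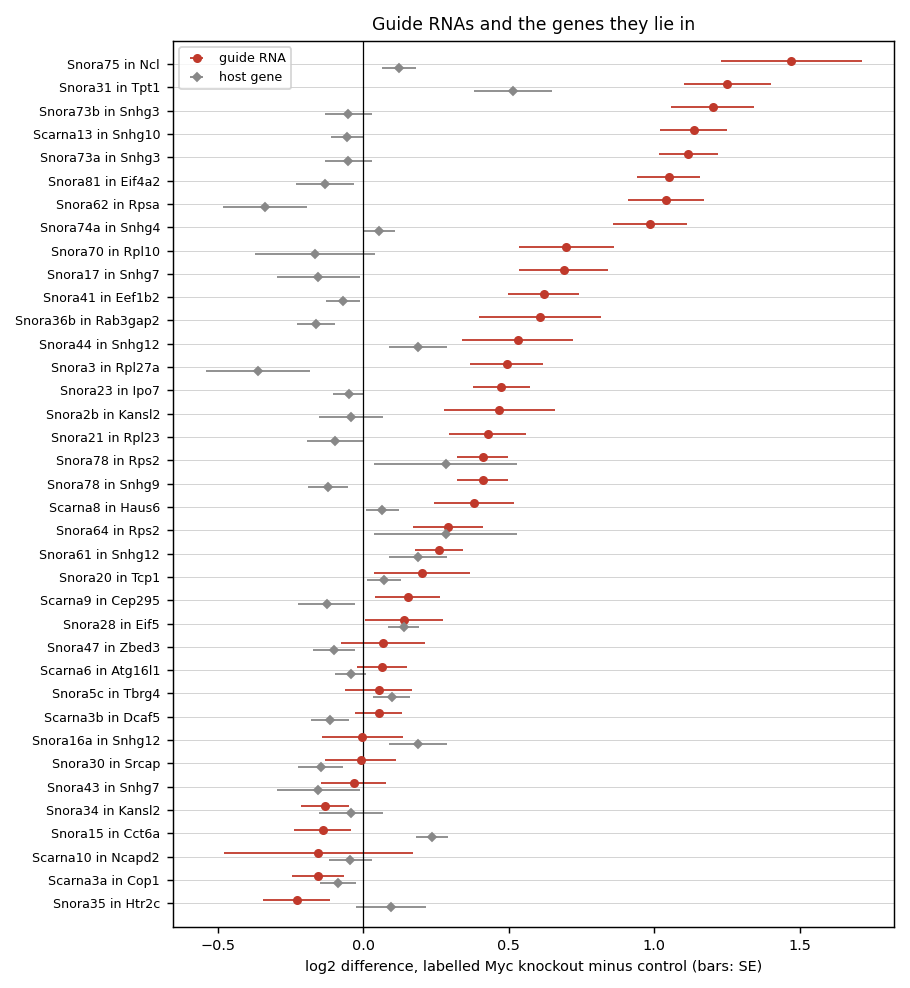
Log2 difference, arrays labelled Myc knockout minus control (horizontal axis, bars SE), of each guide RNA with a measured host (red circles) and of that host gene (grey diamonds), 1 row per pair of RNA and host. The red points of the upper rows reach 1.47 while the host points stay between −0.36 and 0.52.

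RNAs from introns of the same host also differed from each other. In Rps12, the log2 ratio of Snora33 to the C/D RNA Snord100, set to a control mean of 0, was 1.07, 1.14 and 1.10 in the arrays labelled Myc knockout and −0.083, 0.045 and 0.038 in controls. In Ncl, the ratio of Snora75 to Snord82 was 1.42, 1.57 and 1.001 in the arrays labelled Myc knockout and 0.42, −0.28 and −0.14 in controls. In Eif4a2, the ratio of Snora81 to Snord2 was 0.70, 0.71 and 0.59 in the arrays labelled Myc knockout and 0.29, −0.16 and −0.13 in controls. In all 3 hosts the arrays labelled Myc knockout stood above the controls without overlap, while the C/D RNAs themselves differed by −0.089 ± 0.11, 0.14 ± 0.063 and 0.39 ± 0.076. No test is given for these ratios, since the H/ACA RNAs were known to be high. Snord100 and Snord82, with means of 11.28 and 10.56 in the arrays labelled Myc knockout and 11.37 and 10.42 in controls, lay close to the highest level of any gene (11.97), and whether their signal was near its ceiling was not tested.

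Snhg12, a noncoding host, holds 3 H/ACA RNAs and a C/D RNA on the array. Relative to Snord99 (−0.25 ± 0.11), the log2 ratio of Snora44 was 1.05, 0.86 and 0.45 in the arrays labelled Myc knockout and −0.12, 0.17 and −0.056 in controls, and that of Snora61 was 0.55, 0.54 and 0.45 in the arrays labelled Myc knockout and −0.20, 0.10 and 0.094 in controls. Snora16a, from the same host, had overlapping ratios of 0.46, 0.050 and 0.25 in the arrays labelled Myc knockout and −0.31, 0.17 and 0.13 in controls. H/ACA RNAs of a shared host could also part from each other. In Snhg7, the ratio of Snora17 to Snora43 was 0.93, 0.82 and 0.42 in the arrays labelled Myc knockout and 0.067, −0.073 and 0.0058 in controls. In Kansl2, Snora2b and Snora34 differed by 0.47 ± 0.19 and −0.13 ± 0.083. Snora73b against Snora73a in Snhg3, and Snora78 against Snora64 in Rps2, overlapped between the groups.

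**Figure D5:**
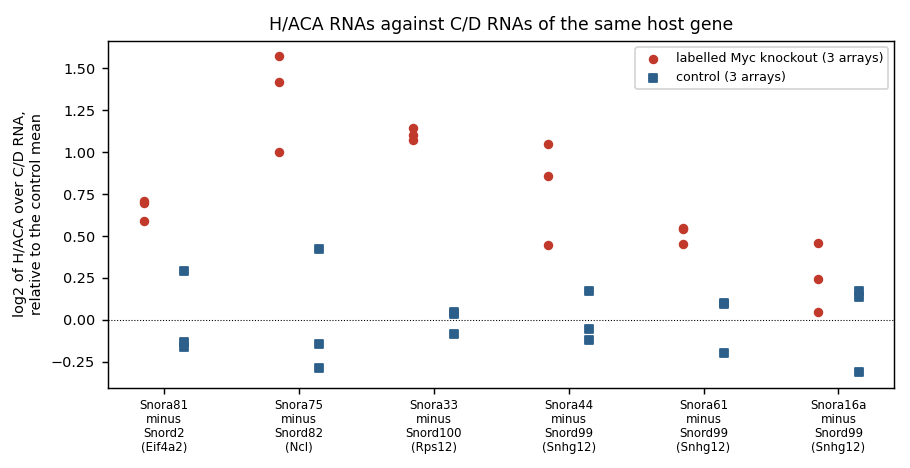
Log2 ratio of an H/ACA RNA to a C/D RNA of the same host gene on each array, set to a control mean of 0 (vertical axis), for the 6 such pairs (hosts in brackets): red circles, arrays labelled Myc knockout; blue squares, controls. The groups are separate in 5 pairs, with the ratio of Snora33 to Snord100 near 1.1 on all 3 arrays labelled Myc knockout, and overlap for Snora16a and Snord99.

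MYC binds the E-box CACGTG, and the promoters of the hosts were searched for these letters (which read the same on both strands) in the RefSeq windows of GRCm38.p6, from 250 bases before to 50 after the annotated start. The letters were in the window of 5 of 32 hosts with a window, against 8.09% of all genes that have one. The 5 were Rab3gap2 (Snora36b), Ipo7 (Snora23), Rpl23 (Snora21), Snhg9 (Snora78) and Cep295 (Scarna9). Of the 7 hosts of the RNAs that rose, 6 had a window and 0 of these held the letters. Beside the 8.09% of all genes, 6 windows are too few for this count to differ from that share. A match describes the window only and is not a binding site.

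Most genes for the proteins of the H/ACA particle had small positive differences beside the guide RNAs. Of 12 genes of the particle and its assembly, 10 had positive differences (median 0.12), 0 passed in limma, and at unadjusted p under 0.05 there were 4 higher and 0 lower. For these lists the values over all genes are 52.3% positive, 6.97% higher and 7.91% lower, and Nolc1 (0.21 ± 0.077) is counted among the higher genes of both this list and the Cajal body list. Gar1, at 6.38, 6.57 and 6.44 in the arrays labelled Myc knockout and 6.21, 6.02 and 6.00 in controls, had the largest difference (0.39 ± 0.084). Nhp2 differed by 0.22 ± 0.076, the pseudouridine synthase gene Dkc1 by 0.17 ± 0.065, Nop10 by 0.13 ± 0.066, and the assembly factor genes Shq1 and Naf1 by 0.071 ± 0.068 and 0.067 ± 0.091. Cajal body genes were mixed, with 8 of 17 positive (median −0.014), 0 past the threshold in limma, and at unadjusted p under 0.05 there were 4 higher and 1 lower. Coil, which encodes the scaffold coilin, differed by −0.053 ± 0.080, and Wrap53, whose product brings scaRNAs to Cajal bodies, by −0.014 ± 0.056. Of 19 genes for 3′ end trimming and decay of such RNAs, 9 had positive differences (median −0.011), 0 passed in limma, and at unadjusted p under 0.05 there were 2 higher and 0 lower. In the C/D particle, 5 of 5 measured genes had positive differences (median 0.20), 0 passed in limma, and at unadjusted p under 0.05 there were 3 higher and 0 lower.

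Terc, the telomerase RNA, ends in an H/ACA domain and is held by the same proteins. It was at 6.44, 6.86 and 6.28 in the arrays labelled Myc knockout and at 6.86, 6.66 and 7.01 in controls, with overlapping groups and a difference of −0.32 ± 0.17 (limma's adjusted p = 0.420). Its 95% interval, −0.72 to 0.080, lies below those of all 8 RNAs that rose. Those 8 were selected by passing in this same fit, so the comparison is a description and not a test. Tert, the telomerase protein gene, was at 3.67, 3.90 and 3.69 in the arrays labelled Myc knockout and at 4.11, 4.17 and 4.31 in controls, groups that do not overlap, and the difference of −0.44 ± 0.090 did not pass (limma's adjusted p = 0.106).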

How the data were processed

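The deposited values are log2 RMA values of 6 Affymetrix arrays, which the authors made with RMA (per the submitters' processing notes, where limma 3.14.4 is also named). RMA brings the arrays to nearly the same distribution, which hides any change common to the whole transcriptome. For the array version, probe set definition and genome build, the entry is "not given in the sources used here". Of 25206 probe sets, 23185 had 1 gene symbol in the platform annotation, 0 had several and 2021 had none; all 23185 and all 42 guide RNAs were found by gene number in the RefSeq table (GRCm38.p6), used for hosts, lengths and sequences.

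Group differences came from limma 3.58.1 under R 4.3.3 (lmFit, then eBayes; no covariates and no level filter) over all 23185 genes, two-sided, with Benjamini-Hochberg adjustment and a threshold of 0.05. The procedure was tested on simulated data. Arrays have no read depth; their number limits the precision. The members, lists and tests were chosen with earlier results of these data known. Genes named were those past the threshold, the 8 with the largest and the 8 with the smallest difference, the 8 brightest, the 4 with the largest SD, all Scarna RNAs, their hosts, the particle genes, and the 3 C/D RNAs with the smallest adjusted p; all 42 RNAs are given, and further hosts and pairs of RNAs in a host were chosen after their values were seen. Hosts were to be matched by strand, which the gene table does not give; for the 4 RNAs shown with sequence, the hairpin and host strands, from other RefSeq tables, were the same. Sequences of full guide RNAs are not shown here. Figures were drawn with matplotlib 3.10.9.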

Additional observations from a re-analysis of the deposited data

How the results depend on the processing

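The 8 guide RNAs higher and 0 lower were also counted with a robust prior variance, array weights, median centring, cyclic loess, all probe sets, and genes at or above the lower quartile of level; an intensity trend in the prior variance gave 9 and an adjusted p under 0.10 gave 10, with 0 lower in each. Among genes at or above the median level, 13 of 39 were higher, and there Myc passed as well (difference 0.36, limma's adjusted p = 0.0487). At an adjusted p under 0.01 the count was 0 for the guide RNAs and for all genes. Without any 1 array it was 0, and the median over the 42 was 0.19 to 0.41. C/D box RNAs past the threshold numbered 1 higher with an intensity trend, 2 higher and 2 lower among genes at or above the median level, and 1 higher and 1 lower at 0.10. With the replicate number of the titles as a block, 0 guide RNAs passed (smallest adjusted p = 0.114 in limma). With unadjusted p under 0.05 in that fit there were 21 higher and 0 lower (6.41% and 6.73% of all genes). Deviations of samples with the same number had correlations of −0.070, −0.012 and −0.017 over all genes. Over the 42 guide RNAs these were −0.20, −0.084 and 0.23. With 3 arrays a group, such correlations cannot show whether samples of the same number were prepared together. All genes called numbered 105, against 370 with a trend, 549 and 192 with the filters at the median and lower quartile, 413 at 0.10, 0 with the block and 0 to 2 without 1 array. Over 29 named genes (guide RNAs and Myc), 0 results reversed past the threshold and 21 of 432 results under an alternative differed in sign, called in neither fit. Probe sets near background, such as Snora35 and Scarna10, cannot show a lack of change.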

Other observations

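Among 11 other small noncoding RNAs, 1 rose, Rnu11, the U11 small nuclear RNA of the minor spliceosome. It was at 9.35, 9.32 and 9.23 in the arrays labelled Myc knockout and 8.36, 8.51 and 8.50 in controls, a 1.79-fold difference (0.84 ± 0.069, limma's adjusted p = 0.0163). Rnu3a, the U3 RNA, is of C/D type and acts in 18S rRNA processing as U17 does; it was at 9.22, 8.79 and 8.47 in the arrays labelled Myc knockout and 8.07, 8.15 and 8.21 in controls (0.68 ± 0.18) without passing (limma's adjusted p = 0.177). Among RNAs made by RNA polymerase III from their own genes, Rmrp differed by 0.11 ± 0.053, Rn7sk by 0.096 ± 0.059, Rpph1 by 0.33 ± 0.17, the 5S rRNA gene n-R5s136 by 0.33 ± 0.13 (groups separate) and the Y RNA gene Rny1 by −0.16 ± 0.11, and none of these passed. Of 527 microRNA genes, 1 rose and 0 fell (0.254% and 0.198% of all genes), with a median difference of 0.018; 293 of them lay below the lower quartile of level.

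The genes whose values over the 6 arrays were most like those of Snora73a, by Pearson's r and as a description, were Zbtb32 (0.999), Snora33 (0.997), Snora31 (0.996), Snora73b (0.996) and Htr2a (0.995). Zbtb32, a transcriptional repressor gene of lymphocytes, differed by 0.19 ± 0.052 and did not pass, and the serotonin receptor gene Htr2a rose (0.67 ± 0.069, limma's adjusted p = 0.0251). These arrays fall into the 2 groups compared, so any gene that differs between the groups will correlate with Snora73a.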
